A study of Homo sapiens with 9 samples.

Results

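The knockdown of the *ELOVL5* gene was compared with its luciferase control in MDA-MB-231 cells, a human line used as a model of triple negative breast cancer. The comparison takes in 6 of the 9 arrays of the series, 3 of the *ELOVL5* knockdown and 3 of the control, and every gene that a single symbol names on the array, 22465 in all. Control cells, MDA-MB-231 (LUC), carried a shRNA to firefly luciferase, and knockdown cells carried a shRNA to *ELOVL5*, both from the lentiviral vector pLVX shRNA1 and both selected with puromycin. The 3 remaining arrays came from a stable knockdown of *IGFBP6* that was made earlier in a similar way, and they entered the fit and a direct comparison at the end. All cells grew in high glucose DMEM with fetal bovine serum. Each group was 1 stable culture, from which RNA was obtained 3 times, so the p-values cover only the variation between these RNA preparations. The *ELOVL5* group rested on 1 shRNA in 1 culture, and what followed from the loss of *ELOVL5*, from that shRNA or from the history of the culture cannot be told apart.

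ELOVL5 is an enzyme of the endoplasmic reticulum that adds carbon units to polyunsaturated fatty acids of intermediate length. It works between the desaturases FADS2 and FADS1 on the way from dietary linoleic and linolenic acids to the precursors of eicosanoids and of docosahexaenoic acid. Its products are built into membrane phospholipids, can be released by phospholipases and oxidised to signalling lipids, and act on nuclear receptors and on the SREBP factors that control lipid synthesis.

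The assay was the Human Transcriptome Array 2.0 of Affymetrix, hybridised with total RNA, and each value below is a log2 intensity from the RMA algorithm, so that a difference of 1 is a change of 2 times. The median of all values was 5.02, and levels near or below it lie in the range of background. Arrays of 1 group correlated at 0.9942 to 0.9950 in the control and at 0.9954 to 0.9976 in the knockdown, over transcript clusters that are not independent points. Of 10 genes that mark MDA-MB-231 cells, such as *VIM*, *CD44*, *AXL* and *MSN*, 9 had a control mean of at least 6, and *ESR1* (4.64) and *PGR* (4.14), the receptors this line lacks, lay near background. Of the markers of other cells, 0 of 8 for fibroblasts reached 6 in the control, as did 1 of 8 for endothelium (*KDR*, 6.01) and 1 of 11 for leukocytes (*CD68*, 12.08), while the leukocyte gene *PTPRC* lay at 5.28. Of 10 markers of luminal breast epithelium 5 reached 6, the highest at 13.14. The log2 of the summed leukocyte markers was 11.93 to 12.40 in the control and 12.60 to 12.66 after the knockdown. This sum mostly reflects *CD68*, which was not called (0.51, adjusted p = 0.149, limma), as the other markers had control means of 5.28 or less. Of the 11 markers 7 had a log2 fold change below 0 and 4 above it, with a median of -0.05. *PTPRC* differed by -0.52 (adjusted p = 0.0444, limma), a change too small for a call. The part of these markers in the results was not tested.

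*ELOVL5* mRNA was lower in every knockdown array. Its log2 intensity was 11.25, 11.26 and 11.36 in the control and 9.66, 9.67 and 9.57 after the knockdown. The 2 groups did not overlap, and the arrays within each group lay close together. The control mean was 11.29 ± 0.06 (SD, n = 3) and the knockdown mean 9.63 ± 0.06 (SD, n = 3), a fall of 3.15 times (log2 fold change -1.66, standard error 0.11, adjusted p = 8.71e-05, limma). Under every alternative fitted the log2 fold change lay between -1.68 and -1.62. In the *IGFBP6* knockdown *ELOVL5* was at 11.44, 11.70 and 11.90, which differs from the *ELOVL5* knockdown by -2.05 (adjusted p = 2.84e-06).

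The change reached few genes, and the rises were larger than the falls. After the knockdown 151 genes rose and 155 fell, with the limits set at 0.05 for the adjusted p and at 1.5 times for the change, which is 1.36% of the 22465 genes tested (0.672% higher and 0.69% lower). A rise of at least 2 times was called for 71 genes and a fall of that size for 43, and of at least 4 times for 21 and 2. All 5 changes of at least 10 times were rises. The median change was 0.96 among the genes that rose and -0.76 among those that fell, on the log2 scale. Of the genes that rose, 72 had a control mean under 6, and of the genes that fell, 10 did. The knockdown arrays lay on 1 side of the control arrays for all 306 called genes, and over all genes tested they did so for 5332, or 23.7% (9.91% above and 13.8% below). The limits of a call themselves favour such separation, so the first count is no added support.

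**Figure D1:**
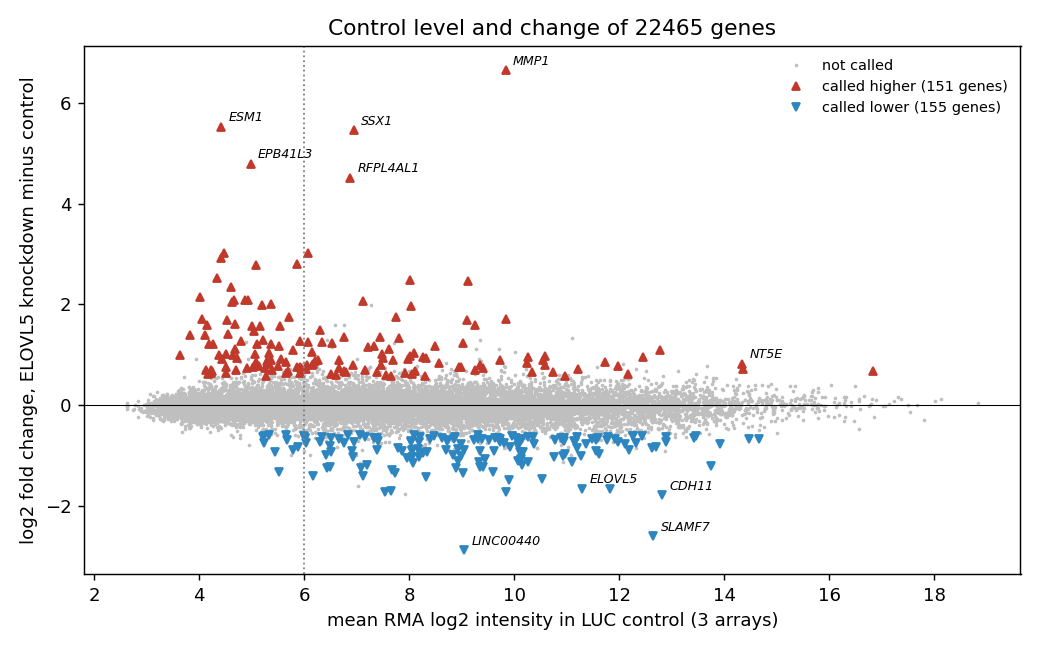
Change of each gene (log2 fold change, *ELOVL5* knockdown minus control, vertical axis) against its mean log2 intensity in the 3 control arrays (horizontal axis). Red triangles are the 151 genes called higher, blue triangles the 155 called lower, grey points the rest, and the dotted line marks a level of 6. The largest rises stand at 4.52 to 6.65, well beyond the largest fall at -2.88, and many of the rises start left of the dotted line.

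The number of calls changed when single arrays were left out. Such fits also have fewer replicates, and whether a lost call came from that or from the array left out was not tested. Without 1 of the 9 arrays the number of genes called higher lay between 77 and 176 and of genes called lower between 61 and 169, with the fewest rises without knockdown array 2 or 3 (77 each) and the fewest falls without knockdown array 3 (61), 1 (68) or 2 (70). In all 9 of these fits 125 genes kept their call, 72 higher and 53 lower, and the text says which of the genes named below are not among them. Without the moderation of variances across genes 49 genes were called higher and 45 lower. Among the genes named below whose calls held in all 9 fits, *SSX8P*, *SSX6P*, *MIR1299*, *CCND2*, *IFI44L*, *PIK3CG*, *PLXNA2*, *TFPI2*, *SERPINB7*, *CYP2J2*, *CXADR*, *IL7R* and *SLC4A4* were not called without it (adjusted p 0.0532 to 0.104), as were some of the largest changes, named there.

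The largest rises were those of a collagenase, a secreted proteoglycan and a cancer-testis antigen. *MMP1*, which encodes the collagenase that cuts fibrillar collagen, was at 9.92, 9.59 and 10.01 in the control and 16.50, 16.53 and 16.45 after the knockdown. The knockdown arrays were among the brightest values of the table, and the change was 100.7 times (log2 fold change 6.65, standard error 0.13, adjusted p = 4.4e-09). Like 0.301% of the table, the knockdown values exceed 16, which is more than a 16-bit scanner can record before processing, so this fold is one of processed values.

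*ESM1*, which encodes endocan, a dermatan sulfate proteoglycan known from endothelium, was at 4.33, 4.46 and 4.49 in the control and 9.91, 10.03 and 9.92 after the knockdown. It went from background to a clear signal (log2 fold change 5.53, standard error 0.31, adjusted p = 1.68e-05). The cancer-testis antigen gene *SSX1*, normally expressed in testis, was at 6.80, 6.78 and 7.27 in the control and 12.56, 12.40 and 12.28 after the knockdown (log2 fold change 5.46, standard error 0.14, adjusted p = 4.22e-08). Its near-identical relatives *SSX8P* and *SSX6P* also rose, by 1.98 and 1.30 on the log2 scale, and probes of such copies can share signal, so the 3 changes are not separate measurements. *EPB41L3*, a band 4.1 protein that ties membrane proteins to the actin skeleton, was at 5.01, 4.97 and 4.98 in the control and 9.51, 9.98 and 9.86 after the knockdown (log2 fold change 4.80, standard error 0.12, adjusted p = 3.63e-08). Of 16 genes for band 4.1 and ERM proteins it was the only one called (1 rose, 0 fell, median log2 fold change -0.00). That is 6.25% of the list, beside 1.36% of all genes.

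*RFPL4AL1* was at 6.77, 7.03 and 6.83 in the control and 10.84, 11.97 and 11.37 after the knockdown (log2 fold change 4.52, standard error 0.23, adjusted p = 1.01e-05), and a transcript cluster that names it together with its relative *RFPL4A* was also called higher. The next largest rises were smaller by more than 1 on the log2 scale. *ABI3BP*, which encodes a protein of the extracellular matrix, rose by 3.03 from 5.89, 6.38 and 5.93 to 9.09, 9.03 and 9.16. *NCKAP1L*, the blood cell subunit of the WAVE complex that drives branched actin, rose by 3.02 from 4.51, 4.51 and 4.43 to 7.24, 7.80 and 7.46. *IL1RL1*, which encodes the ST2 cytokine receptor, rose by 2.92 from 4.50, 4.40 and 4.34 to 7.13, 7.50 and 7.38. The control values of the last 2 lay below the median of all values.

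*PTPN22*, a tyrosine phosphatase of lymphocytes, rose by 2.81 from 5.66, 6.11 and 5.81 to 8.50, 8.76 and 8.74. *MMP3*, which encodes stromelysin and can cleave proMMP1, rose by 2.78 from 5.02, 4.96 and 5.25 to 8.28, 7.51 and 7.79 (adjusted p = 0.0027). *SULT1B1*, a sulfotransferase, rose by 2.52 from 4.28, 4.40 and 4.37 to 6.74, 7.06 and 6.82. The noncoding RNA *LINC00707* varied more in the control than the others, at 7.45, 7.91 and 8.70 in the control and 10.09, 10.80 and 10.60 after the knockdown (log2 fold change 2.48, standard error 0.34, adjusted p = 0.00634). All 12 of these rises held in each fit that left out 1 array, and without moderated variances *MMP3* (adjusted p = 0.084) and *LINC00707* (0.117) were no longer called.

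**Figure D2:**
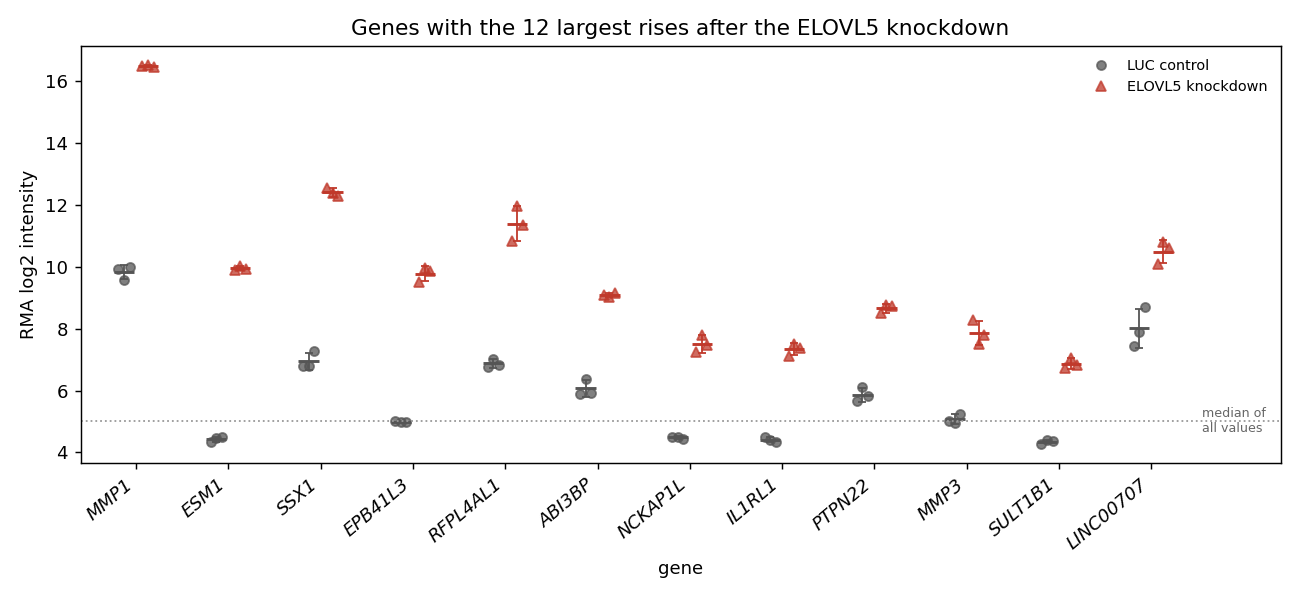
Log2 intensity (vertical axis) of the genes with the 12 largest rises (horizontal axis) in each control array (grey circles) and each *ELOVL5* knockdown array (red triangles), with the mean (bar) and SD of 3 arrays. The 3 knockdown arrays lie above the 3 control arrays for each gene, and *MMP1* reaches 16.45 to 16.53 while *ESM1*, *EPB41L3* and *SULT1B1* start near the dotted median of all values, 5.02.

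The 250 bases before the start of the gene are shown for 5 of the 12 largest rises, each of which held 1 match to a searched motif. The motifs were the AP-1 site TGANTCA, an NF-kappaB site (GGGA and CC with any 4 bases between them) and the TATA box TATAAA, searched on both strands. The sequences are from RefSeq (GRCh38.p14), read 5′ to 3′ towards the gene, with the match in capitals. *MMP1*, *NCKAP1L* and *MMP3* are named only.
*ESM1* (chr5:54985594-54985843, minus strand): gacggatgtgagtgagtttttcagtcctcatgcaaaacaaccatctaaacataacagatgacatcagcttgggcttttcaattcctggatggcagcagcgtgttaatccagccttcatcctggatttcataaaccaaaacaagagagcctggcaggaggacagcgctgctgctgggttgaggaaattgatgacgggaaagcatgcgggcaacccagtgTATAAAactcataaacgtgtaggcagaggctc
*RFPL4AL1* (chr19:55768868-55769117, plus strand): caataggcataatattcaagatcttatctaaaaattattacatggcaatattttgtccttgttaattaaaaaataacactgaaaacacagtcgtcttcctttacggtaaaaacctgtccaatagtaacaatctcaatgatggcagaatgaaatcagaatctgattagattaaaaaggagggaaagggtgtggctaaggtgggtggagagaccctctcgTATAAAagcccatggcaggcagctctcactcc
*SSX1* (chrX:48255142-48255391, plus strand): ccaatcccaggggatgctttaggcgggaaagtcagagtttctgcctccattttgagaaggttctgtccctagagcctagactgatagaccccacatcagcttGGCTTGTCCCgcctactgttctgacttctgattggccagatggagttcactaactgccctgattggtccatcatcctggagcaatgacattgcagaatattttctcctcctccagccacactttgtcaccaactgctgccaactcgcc
*EPB41L3* (chr18:5628992-5629241, minus strand): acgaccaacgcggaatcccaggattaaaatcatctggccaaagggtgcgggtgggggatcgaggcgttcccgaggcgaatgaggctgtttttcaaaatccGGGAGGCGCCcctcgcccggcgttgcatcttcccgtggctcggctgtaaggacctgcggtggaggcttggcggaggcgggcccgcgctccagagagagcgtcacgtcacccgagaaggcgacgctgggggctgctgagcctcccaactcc
*IL1RL1* (chr2:102337007-102337256, plus strand): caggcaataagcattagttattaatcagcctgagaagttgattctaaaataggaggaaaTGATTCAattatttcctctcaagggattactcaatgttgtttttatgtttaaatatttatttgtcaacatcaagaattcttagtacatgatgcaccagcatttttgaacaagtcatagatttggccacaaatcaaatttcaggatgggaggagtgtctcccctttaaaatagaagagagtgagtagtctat
The TATA box of *ESM1* and that of *RFPL4AL1* each began 32 bases before the start. *SSX1* and *EPB41L3* each held 1 match to the NF-kappaB letters, on the minus strand in *SSX1* (148 bases before the start) and on the plus strand in *EPB41L3* (150 bases before it), and *IL1RL1* held 1 AP-1 match (191 bases before it). TATAAA was found in 20.7% of 111 promoters of genes that rose, in 10.2% of 108 promoters of genes that fell and in 8.99% of the 15247 promoters of all genes tested. For the AP-1 letters the shares were 6.31%, 4.63% and 5.36%, and for the NF-kappaB letters 24.3%, 31.5% and 25.5%. Of the other large rises *ABI3BP* and *SULT1B1* held TATAAA on the minus strand, 236 and 29 bases before the start, and *PTPN22* held 0 matches. These shares are a description with no test, and a match of letters is not a bound site.

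Among the genes of lipid handling outside the named rule, 2 rose strongly. They and the other genes called so below were chosen after their values were seen. *G0S2*, which encodes an inhibitor of the triglyceride lipase ATGL, was at 9.01, 9.05 and 9.31 in the control and 11.46, 11.77 and 11.53 after the knockdown (log2 fold change 2.46, standard error 0.15, adjusted p = 2.57e-05). *AGMO*, which encodes the enzyme that cleaves ether lipids, was at 4.62, 4.73 and 4.53 in the control and 6.66, 6.63 and 6.76 after the knockdown (log2 fold change 2.06, standard error 0.10, adjusted p = 8.21e-06). Both calls held without each of the 9 arrays.

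Of the 7 fatty acid elongases *ELOVL5* and *ELOVL7* fell, and of 7 desaturases 0 passed the test (0 at an unadjusted p under 0.05, limma, beside 13.2% of all genes). *ELOVL7*, which elongates long saturated fatty acids, was at 8.04, 8.11 and 8.0 in the control and 7.05, 7.27 and 7.19 after the knockdown. Its arrays did not overlap, and it fell by 1.84 times (log2 fold change -0.88, standard error 0.09, adjusted p = 0.0013), a call that held without each of the 9 arrays. *ELOVL1* (control 8.67 ± 0.08, knockdown 8.72 ± 0.08, SD, n = 3) and *ELOVL6* (10.85 ± 0.16 and 10.80 ± 0.03), which work on saturated chains, were clearly expressed, and their log2 fold changes were 0.05 and -0.05 (adjusted p = 0.938 and 0.948). *ELOVL2*, the elongase nearest to *ELOVL5* in substrates, lay near background at 5.02, 4.74 and 4.73 in the control and 4.74, 4.85 and 4.84 after the knockdown. *ELOVL3* (3.84 ± 0.01 in the control) and *ELOVL4* (4.64 ± 0.15) lay there too.

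The desaturase that feeds ELOVL5, *FADS2*, was at 8.94, 8.90 and 8.38 in the control and 9.08, 8.82 and 8.82 after the knockdown (log2 fold change 0.17, standard error 0.15, adjusted p = 0.793). The groups overlapped, with control array 3 the lowest. *SCD*, which makes oleic and palmitoleic acid, showed the same low control array, at 14.03, 13.99 and 12.71 in the control and 14.11, 13.81 and 13.75 after the knockdown (log2 fold change 0.31, standard error 0.30, adjusted p = 0.801). The log2 fold changes of *FADS3* (-0.26), *FADS6* (0.01), *SCD5* (0.08) and the sphingolipid desaturases *DEGS1* (-0.13) and *DEGS2* (-0.04) had adjusted p-values of 0.546 or more. *FADS1* shares its transcript cluster with a microRNA gene and was not analysed here.

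**Figure D3:**
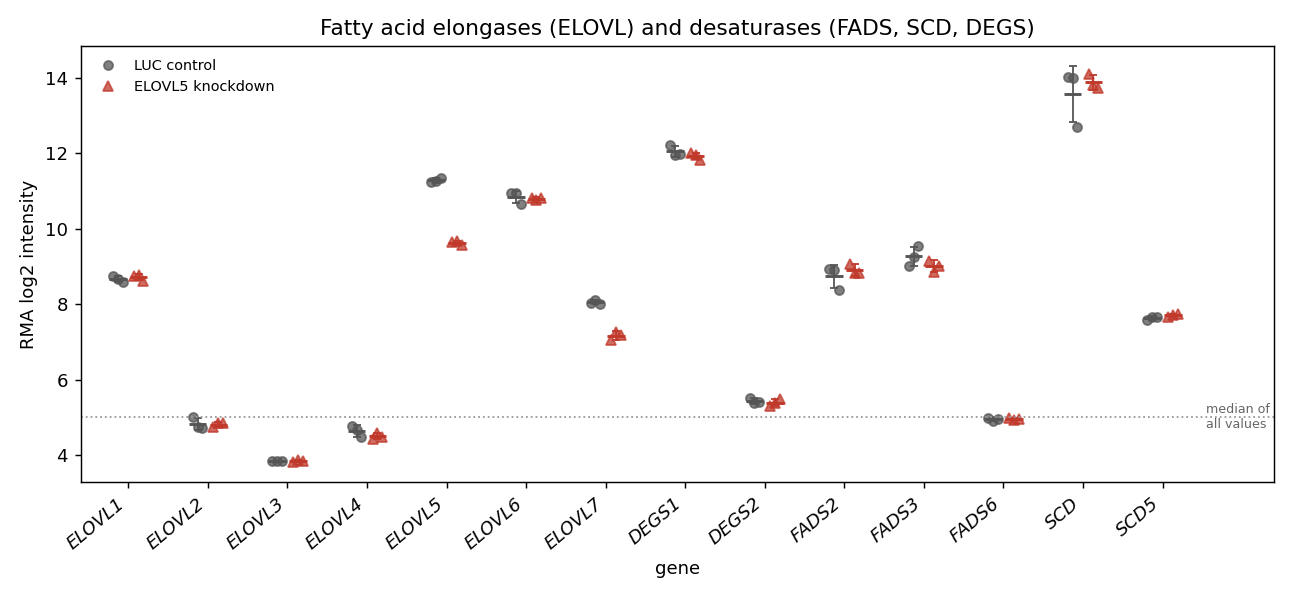
Log2 intensity (vertical axis) of 7 elongase and 7 desaturase genes (horizontal axis) in each control array (grey circles) and *ELOVL5* knockdown array (red triangles), with the mean (bar) and SD of 3 arrays. The groups stand apart for *ELOVL5* and *ELOVL7* only, and *ELOVL2*, *ELOVL3*, *ELOVL4* and *FADS6* lie at or below the dotted median of all values, 5.02.

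In the pathways around ELOVL5 single genes were called, and in lists of this size the 1.36% of all genes would give under 1 gene each. Among 5 partners of the elongation cycle, 12 acyl-CoA synthetases, 33 genes of SREBP and sterol or fatty acid synthesis, 15 genes of lipid peroxide handling and 16 eicosanoid receptors, 0 were called, where 13.2% of all genes tested had an unadjusted p under 0.05 and these lists had 1, 2, 2, 1 and 2 such genes. Their median log2 fold changes lay between -0.06 and -0.02, beside -0.02 for all genes. In a list of 44 PPAR receptors and genes of fatty acid oxidation 2 fell, *CPT1A* (-0.73, adjusted p = 0.0336), which carries fatty acids into mitochondria, and *ABCD3* (-0.61, adjusted p = 0.0249), a peroxisomal transporter. *CPT1A* was at 11.17, 11.18 and 11.10 in the control and 10.48, 10.42 and 10.36 after the knockdown, and its groups did not overlap. Its call was lost without control array 1, 2 or 3 or knockdown array 1, 2 or 3 (adjusted p 0.0771 to 0.158) and that of *ABCD3* without control array 1, 2 or 3 or knockdown array 1, 2 or 3 (adjusted p 0.0572 to 0.0907). *PPARGC1A*, the coactivator of mitochondrial genes, was at 7.68, 7.01 and 6.49 in the control and 5.74, 5.98 and 6.01 after the knockdown and did not pass (-1.15, adjusted p = 0.0637).

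Of 22 genes for phospholipid remodelling *LPCAT1*, an acyltransferase of phosphatidylcholine, fell (-0.76, adjusted p = 0.0325), a call lost without control array 1 or 2, knockdown array 1, 2 or 3 or *IGFBP6* knockdown array 3 (adjusted p 0.052 to 0.158). Of 24 eicosanoid enzymes *CYP2J2*, the epoxygenase that turns arachidonic acid into epoxides, rose from 4.81, 4.73 and 4.64 to 5.62, 5.84 and 5.54 (log2 fold change 0.94, standard error 0.12, adjusted p = 0.00367), and this call held without each of the 9 arrays and was lost without moderated variances (adjusted p = 0.0533). *PTGS2*, the inducible cyclooxygenase, was at 6.99, 8.13 and 8.04 in the control and 9.25, 9.06 and 8.57 after the knockdown. Its knockdown arrays lay above the control arrays, which spread widely, and it did not pass (1.24, adjusted p = 0.132). *OLR1*, the receptor for oxidised low density lipoprotein and a gene outside these lists, fell from 5.23, 5.64 and 5.71 to 4.23, 4.12 and 4.25 (log2 fold change -1.33, standard error 0.13, adjusted p = 0.000869).

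The largest falls were those of a noncoding RNA, an immune receptor and a cadherin. *LINC00440* was at 8.96, 9.41 and 8.78 in the control and 6.41, 5.98 and 6.13 after the knockdown (log2 fold change -2.88, standard error 0.22, adjusted p = 0.000196). *SLAMF7*, which encodes a self-binding receptor of lymphocytes and plasma cells, was at 13.05, 12.63 and 12.27 in the control and 9.98, 9.88 and 10.31 after the knockdown (log2 fold change -2.59, standard error 0.24, adjusted p = 0.000594). It stayed clearly expressed after the knockdown. It was the only one called of 11 genes for the SLAM family and lymphocyte receptors, 9.09% beside 1.36% of all genes. *CDH11*, which encodes OB-cadherin of mesenchymal cells, was at 12.82, 13.29 and 12.32 in the control and 10.84, 11.16 and 11.06 after the knockdown (log2 fold change -1.79, standard error 0.21, adjusted p = 0.00244). The control arrays of *CDH11* spread widely, and the knockdown arrays lay below all of them.

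*CYRIA*, whose protein binds RAC1 and counters the WAVE complex, fell by 1.71 on the log2 scale from 7.75, 7.79 and 7.07 to 5.68, 5.96 and 5.83. *SCN9A*, which encodes a voltage-gated sodium channel, fell by 1.70 from 7.31, 8.03 and 7.64 to 5.71, 6.12 and 6.05. *INHBB*, which encodes the beta chain of activin B, fell by 1.66 from 12.03, 11.91 and 11.55 to 10.10, 10.16 and 10.24. *INHBB* had fallen as far as *ELOVL5* itself. *TLL1*, a tolloid-like metalloproteinase that processes procollagen and frees BMPs from chordin, fell by 1.40 from 6.83, 7.19 and 7.35 to 5.57, 5.74 and 5.86. These calls and those of *LINC00440*, *SLAMF7* and *CDH11* held without each of the 9 arrays.

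The other 4 of the 12 largest falls did not hold in that way. The tight junction gene *CLDN1* was at 9.23, 9.80 and 10.52 in the control and 8.06, 8.08 and 8.22 after the knockdown (log2 fold change -1.73, standard error 0.28, adjusted p = 0.016), with a wide spread in the control. Its call was lost without control array 2 or knockdown array 1, 2 or 3 (adjusted p 0.0574 to 0.0686). *LINC03033* (-1.49, adjusted p = 0.0179) was lost without control array 1 or 2 or knockdown array 1 or 2 (adjusted p 0.0572 to 0.0797). *EVI2A* (-1.46, adjusted p = 0.0206) was lost without control array 3 or knockdown array 1, 2 or 3 (adjusted p 0.0626 to 0.0884), and *CD24* (-1.43, adjusted p = 0.0347), a surface glycoprotein, without control array 1, 2 or 3 or knockdown array 1, 2 or 3 (adjusted p 0.0596 to 0.15). Without moderated variances *CLDN1*, *LINC03033*, *EVI2A*, *CD24*, *CDH11*, *SCN9A* and *CYRIA* were no longer called (adjusted p 0.0515 for *CYRIA* to 0.211 for *CD24*).

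**Figure D4:**
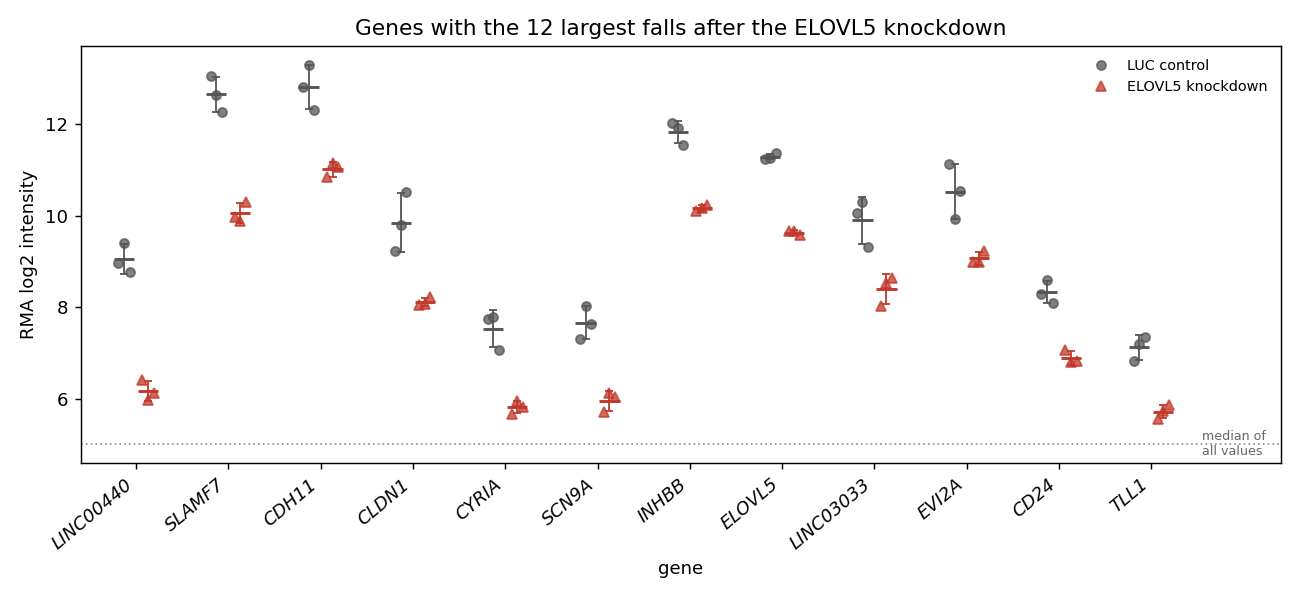
Log2 intensity (vertical axis) of the genes with the 12 largest falls (horizontal axis) in each control array (grey circles) and each *ELOVL5* knockdown array (red triangles), with the mean (bar) and SD of 3 arrays. The knockdown arrays lie below the control arrays for each gene, most remain above the dotted median of all values, 5.02, and *CLDN1* and *EVI2A* spread most in the control.

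Genes of cell adhesion changed in both directions. Of 18 classical cadherins 2 rose and 3 fell, 27.8% of the list beside 1.36% of all genes. Beside *CDH11*, *CDH19* fell from 5.49, 5.44 and 5.40 to 4.48, 4.56 and 4.53 (log2 fold change -0.92, standard error 0.08, adjusted p = 0.000325), and N-cadherin, *CDH2*, was at 6.08, 6.0 and 5.97 in the control and 5.27, 5.41 and 5.42 after the knockdown (-0.65, adjusted p = 0.0104), close to background in both groups. *CDH12* (0.68, adjusted p = 0.00659) and *CDH10* (0.69, adjusted p = 0.022), both known from neurons, rose from levels below the median of all values. The call of *CDH2* was lost without control array 1 or knockdown array 1 (adjusted p 0.053 to 0.0539) and that of *CDH10* without control array 1 or 3 or knockdown array 2 or 3 (adjusted p 0.0719 to 0.119).

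Among tight junction, desmosome and nectin genes the calls were falls. Outside these lists, and chosen after their values were seen, *PLEKHA7*, a protein of the adherens junction, fell from 7.68, 7.87 and 7.65 to 6.29, 6.44 and 6.42 (log2 fold change -1.35, standard error 0.11, adjusted p = 0.000212), and *CXADR*, an adhesion molecule of tight junctions, from 9.58, 9.54 and 9.21 to 8.08, 8.56 and 8.48 (log2 fold change -1.07, standard error 0.15, adjusted p = 0.00768). Of 30 tight junction genes 1 fell (*CLDN1*), of 15 desmosome genes 1 (*DSP*, -0.76, adjusted p = 0.036) and of 9 nectins and nectin-like genes 1 (*CADM1*, -0.74, adjusted p = 0.0239), and 0 in these 3 lists rose. These calls are 3.33%, 6.67% and 11.1% of the 3 lists, beside 1.36% of all genes. Desmoplakin, the product of *DSP*, anchors keratin at desmosomes. The calls were lost for *DSP* without control array 2 or 3, knockdown array 1, 2 or 3 or *IGFBP6* knockdown array 2 or 3 (adjusted p 0.054 to 0.137) and for *CADM1* without control array 1 or 2 or knockdown array 1, 2 or 3 (adjusted p 0.0716 to 0.106). Of 19 gap junction genes 0 were called, and connexin 43, *GJA1*, was at 6.77, 6.91 and 7.32 in the control and 7.72, 7.99 and 8.07 after the knockdown (0.93, adjusted p = 0.0933). For 20 protocadherins and FAT cadherins 1 rose, *PCDH17* (0.71, adjusted p = 0.0455), and 1 fell, *FAT4* (-0.72, adjusted p = 0.0206). Together they are 10.0% of that list, beside 1.36% of all genes. The call of *PCDH17* was lost without control array 1, 2 or 3, knockdown array 1, 2 or 3 or *IGFBP6* knockdown array 2 or 3 (adjusted p 0.0524 to 0.183) and that of *FAT4* without control array 1 or 2 or knockdown array 2 or 3 (adjusted p 0.0838 to 0.114).

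In a list of 36 adhesion molecules of the immunoglobulin type 3 rose and 0 fell, 8.33% beside 1.36% of all genes. *ROBO1*, the receptor of Slit guidance proteins, rose from 7.18, 7.35 and 7.48 to 8.40, 8.63 and 8.51 (log2 fold change 1.18, standard error 0.11, adjusted p = 0.000826). *NCAM2* (0.67, adjusted p = 0.00953) and *CNTN5* (0.69, adjusted p = 0.0167) are known from axons. The call of *NCAM2* was lost without knockdown array 2 (adjusted p 0.0566) and that of *CNTN5* without control array 1, 2 or 3 or knockdown array 1, 2 or 3 (adjusted p 0.0555 to 0.0922).

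Receptors of guidance cues also rose and fell. In the Eph list 14.3% and in the semaphorin list 9.68% were called, beside 1.36% of all genes. Of 21 Eph receptors and ephrins 2 rose and 1 fell. *EPHA7* rose from 4.89, 4.87 and 4.88 to 6.83, 7.18 and 6.91 (log2 fold change 2.09, standard error 0.14, adjusted p = 7.58e-05) and *EPHA3* from 4.1, 4.27 and 4.07 to 5.57, 5.92 and 5.72 (log2 fold change 1.59, standard error 0.14, adjusted p = 0.000474), both from background. *EPHA5* fell to near background, from 6.21, 6.40 and 6.32 to 5.55, 5.64 and 5.55 (log2 fold change -0.73, standard error 0.09, adjusted p = 0.00279). Of 31 semaphorins, plexins and neuropilins, the semaphorin receptor *PLXNA2* rose from 6.92, 6.72 and 6.66 to 8.18, 8.11 and 8.09 (log2 fold change 1.36, standard error 0.17, adjusted p = 0.00375), its partner *NRP2* rose (0.76, adjusted p = 0.0228) and the ligand *SEMA3E* fell (-1.23, adjusted p = 0.0417). The call of *NRP2* was lost without control array 1 or 3 or knockdown array 1, 2 or 3 (adjusted p 0.0744 to 0.0997) and that of *SEMA3E* without control array 2, knockdown array 1, 2 or 3 or *IGFBP6* knockdown array 2 or 3 (adjusted p 0.0589 to 0.158).

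Matrix genes and their receptors were mixed as well. In the laminin, integrin and collagen lists 8.33%, 7.69% and 2.44% were called, beside 1.36% of all genes. Of 12 laminin and basement membrane genes *LAMA4*, a laminin chain of vessel walls, rose from 4.98, 4.91 and 4.92 to 6.89, 7.23 and 6.96 (log2 fold change 2.09, standard error 0.18, adjusted p = 0.000368), and 0 fell. Of 26 integrins *ITGA2*, the collagen-binding alpha chain, rose from 12.73, 13.22 and 12.35 to 13.66, 14.04 and 13.90 (1.10, adjusted p = 0.0323) and *ITGB3*, the beta chain of the vitronectin receptor, fell from 7.78, 8.61 and 7.80 to 7.07, 6.95 and 7.08 (-1.03, adjusted p = 0.0329). The call of *ITGA2* was lost without control array 1 or 3 or knockdown array 1, 2 or 3 (adjusted p 0.0613 to 0.141) and that of *ITGB3* without knockdown array 1, 2 or 3 or *IGFBP6* knockdown array 2 or 3 (adjusted p 0.0552 to 0.132). Of 41 collagen chains 0 rose and 1 fell, *COL12A1* (-0.71, adjusted p = 0.026), a call lost without control array 2 or 3 or knockdown array 1, 2 or 3 (adjusted p 0.0771 to 0.114).

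In the list of 22 metalloproteinases, which holds neither *TLL1* nor *ADAMTS9*, *MMP1* and *MMP3* rose and 0 fell. This list had 9.09% called, the ADAM, ADAMTS and TIMP list 2.94% and the plasminogen list 10.0%, beside 1.36% of all genes. The gelatinase genes *MMP2* and *MMP9* lay near background, with control means of 4.46 and 5.07 and log2 fold changes of 0.00 and -0.00. The membrane-bound *MMP14* was at 11.22, 11.84 and 11.68 in the control and 12.37, 12.42 and 12.22 after the knockdown and did not pass (0.76, adjusted p = 0.0933). Of 34 ADAM, ADAMTS and TIMP genes 0 rose and 1 fell, *ADAMTS9* (-0.93, adjusted p = 0.0119), a call lost without knockdown array 2 or 3 (adjusted p 0.0624 to 0.0715). Of 20 genes of plasminogen activation and coagulation, *TFPI2*, a Kunitz-type protease inhibitor, rose from 8.97, 8.94 and 9.14 to 10.13, 10.46 and 10.16 (log2 fold change 1.23, standard error 0.16, adjusted p = 0.00491) and *SERPINB7*, a serpin, from 5.45, 5.30 and 5.37 to 6.39, 6.29 and 6.12 (log2 fold change 0.89, standard error 0.11, adjusted p = 0.00408). Urokinase, *PLAU*, was at 10.09, 9.85 and 9.20 in the control and 10.88, 10.90 and 10.69 after the knockdown. Its knockdown arrays lay above the control arrays, and it did not pass (1.11, adjusted p = 0.0853).

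**Figure D5:**
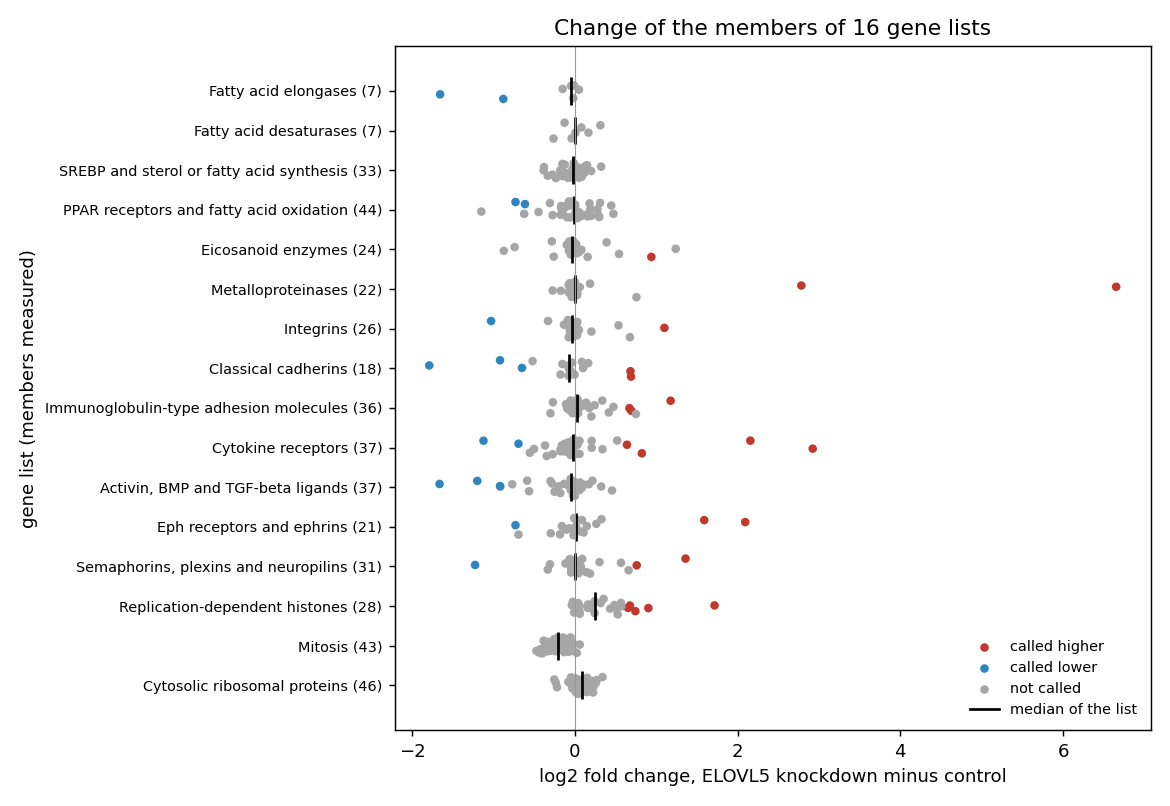
Log2 fold change (*ELOVL5* knockdown minus control, horizontal axis) of the measured members of 16 gene lists (vertical axis, number measured in brackets), called higher (red), called lower (blue) or not called (grey), with the median of each list as a black bar. Most medians lie close to 0, while those of the histones (0.24) and of mitosis (-0.20) lie farther out, and the metalloproteinases hold the point farthest to the right.

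Of 37 cytokine receptors 4 rose and 2 fell, and of 31 interleukins and related cytokines and 33 chemokines 0 were called. The latter 2 lists had 6 and 1 genes at an unadjusted p under 0.05 (limma), beside 13.2% of all genes. Of the receptors 16.2% were called, beside 1.36% of all genes, and whether these lists differ was not tested. Beside *IL1RL1*, the decoy receptor gene *IL13RA2* rose from 4.0, 4.08 and 3.96 to 6.16, 6.18 and 6.17 (log2 fold change 2.16, standard error 0.12, adjusted p = 2.15e-05). *IL7R*, which encodes the receptor of a lymphocyte growth factor, fell from 10.07, 10.45 and 10.25 to 8.83, 9.30 and 9.27 (log2 fold change -1.12, standard error 0.15, adjusted p = 0.00539). These 3 calls held without each of the 9 arrays, and that of *IL7R* was lost without moderated variances (adjusted p = 0.0829). *IL27RA* (0.82, adjusted p = 0.0406), *IL18R1* (0.64, adjusted p = 0.0393) and *CSF2RA* (-0.69, adjusted p = 0.0401) passed only narrowly. Their calls were lost for *IL27RA* without control array 1, 2 or 3, knockdown array 1, 2 or 3 or *IGFBP6* knockdown array 3 (adjusted p 0.0563 to 0.153), for *IL18R1* without control array 1, 2 or 3, knockdown array 1, 2 or 3 or *IGFBP6* knockdown array 3 (adjusted p 0.0598 to 0.176) and for *CSF2RA* without control array 1, 2 or 3, knockdown array 1, 2 or 3 or *IGFBP6* knockdown array 2 or 3 (adjusted p 0.0518 to 0.149). A second transcript cluster of *CSF2RA* did not pass (-0.66, adjusted p = 0.0723).

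Of 37 ligands of the activin, BMP and TGF-beta family 3 fell and 0 rose, 8.11% of the list beside 1.36% of all genes. In the list of receptors and SMADs 3.23% were called and in the IGF list 9.09%. Beside *INHBB*, *TGFB2* fell from 13.67, 13.85 and 13.72 to 12.61, 12.42 and 12.61 (log2 fold change -1.20, standard error 0.11, adjusted p = 0.000611) and *GDF15*, a stress-induced ligand, from 6.53, 6.61 and 6.41 to 5.50, 5.58 and 5.71 (log2 fold change -0.92, standard error 0.10, adjusted p = 0.0015). All 3 calls held without each of the 9 arrays. Of 31 receptors and SMADs *TGFBR3*, the coreceptor betaglycan, fell (-0.89, adjusted p = 0.0176), a call lost without control array 1 or 2 or knockdown array 1 or 3 (adjusted p 0.071 to 0.0808). Of 22 genes for IGF ligands, receptors and binding proteins, *PAPPA*, the protease that frees IGF from IGFBP4, rose from 5.78, 5.97 and 5.64 to 6.82, 6.98 and 6.86 (log2 fold change 1.09, standard error 0.12, adjusted p = 0.00132), and *IGFBPL1* fell (-1.13, adjusted p = 0.0267), a call lost without control array 1, 2 or 3 or knockdown array 1, 2 or 3 (adjusted p 0.0671 to 0.126).

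Genes of signalling cascades changed in both directions. *PIK3CG*, the gamma catalytic subunit of the lipid kinase PI3K, rose from 6.15, 6.30 and 6.44 to 7.54, 8.03 and 7.79 (log2 fold change 1.49, standard error 0.16, adjusted p = 0.00166) and *CCND2*, cyclin D2, from 4.51, 4.56 and 4.53 to 6.12, 6.44 and 6.14 (log2 fold change 1.70, standard error 0.20, adjusted p = 0.00286). Of 22 NF-kappaB subunits and feedback genes *CYLD*, a deubiquitinase that restrains the pathway, fell from 10.19, 9.99 and 10.21 to 9.02, 9.10 and 9.10 (log2 fold change -1.06, standard error 0.09, adjusted p = 0.00048), and 0 rose. That single call is 4.55% of the NF-kappaB list, beside 1.36% of all genes. Of 30 YAP and TEAD genes and targets 1 rose, *NT5E*, which makes adenosine outside the cell, from 14.24, 14.32 and 14.45 to 15.20, 15.17 and 15.12 (log2 fold change 0.83, standard error 0.08, adjusted p = 0.0011). In this list 10.0% were called, beside 1.36% of all genes and 2.35% of those with a mean level of at least 6, as 28 of the 30 had. There *TGFB2* and *GADD45A* fell (-0.62, adjusted p = 0.0464), and the call of *GADD45A* was lost without control array 1 or 3, knockdown array 1, 2 or 3 or *IGFBP6* knockdown array 1, 2 or 3 (adjusted p 0.0524 to 0.186). Of 20 AP-1 factors and 35 genes of ERK feedback and ETS output 0 were called, with 3 and 13 at an unadjusted p under 0.05 (limma). The YAP and TEAD list had 13 such genes, beside 13.2% of all genes, and whether the lists differ from other genes was not tested. *MITF*, a transcription factor of melanocytes and other cells, fell from 10.89, 10.78 and 11.13 to 9.88, 9.90 and 10.01 (log2 fold change -1.0, standard error 0.10, adjusted p = 0.00117).

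Of 12 genes in the list of HLA class II and *CIITA* 1 was called, 8.33% beside 1.36% of all genes. The knockdown arrays lay above all control arrays in 5 of them, beside 9.91% of all genes, 10 had a change above 0 and the median log2 fold change was 0.14. Copies of these genes on several haplotypes can share signal. *HLA-DRB1* rose from 7.25, 7.55 and 6.86 to 8.44, 8.60 and 8.11 (1.16, adjusted p = 0.0386), a call lost without control array 1 or 3, knockdown array 1, 2 or 3 or *IGFBP6* knockdown array 3 (adjusted p 0.0589 to 0.155). *HLA-DRA* was at 6.49, 7.80 and 6.01 in the control and 8.20, 8.84 and 8.02 after the knockdown (1.59, adjusted p = 0.0948) and *CD74*, the invariant chain, at 7.27, 7.85 and 7.50 in the control and 8.46, 8.35 and 8.04 after the knockdown (0.74, adjusted p = 0.0772). In both of these genes the knockdown arrays lay above the control arrays. *HLA-DRA* has 6 other transcript clusters on the array, of which 1 was called higher (1.61, adjusted p = 0.036) and 5 were not (adjusted p 0.0948 to 0.112). A second cluster of *HLA-DRB1* differed by 0.51 (adjusted p = 0.02), less than 1.5 times. Of 39 interferon-stimulated genes *IFI44L* rose from 5.50, 5.94 and 5.18 to 6.87, 7.30 and 7.18 (log2 fold change 1.58, standard error 0.20, adjusted p = 0.00473) and 0 fell. This call is 2.56% of the interferon list, beside 1.36% of all genes. *OASL* was at 7.16, 7.70 and 6.95 in the control and 8.27, 10.35 and 9.13 after the knockdown, with widely spread knockdown arrays, and did not pass (1.98, adjusted p = 0.0633).

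Histone genes had a median above 0 and mitosis genes a median below 0. Of 28 replication-dependent histone genes measured with a symbol of their own, 5 rose and 0 fell, and the median log2 fold change was 0.24, beside -0.02 for all genes. The calls are 17.9% of this list, beside 1.36% of all genes. The knockdown arrays lay above all control arrays in 16 of the 28, beside 9.91% of all genes tested. A mean level of at least 6 was reached by 18 of the 28. Among all 10847 genes at that level 1552 had the knockdown arrays above all control arrays. *H2AC6* was at 9.88, 9.88 and 9.75 in the control and 11.20, 11.80 and 11.66 after the knockdown (log2 fold change 1.72, standard error 0.28, adjusted p = 0.0191), *H2BC17* rose by 0.90, *H2BC13* by 0.74, *H2BC12* by 0.68 and *H2BC3* by 0.65 on the log2 scale. The calls were lost for *H2AC6* without control array 1, 2 or 3 or knockdown array 2 or 3 (adjusted p 0.0626 to 0.0969), for *H2BC17* without control array 1 or 2 or knockdown array 1, 2 or 3 (adjusted p 0.0661 to 0.125), for *H2BC13* without control array 1 or knockdown array 2 or 3 (adjusted p 0.0559 to 0.0669), for *H2BC12* without control array 1, 2 or 3 or knockdown array 1, 2 or 3 (adjusted p 0.072 to 0.145) and for *H2BC3* without control array 1, 2 or 3, knockdown array 1, 2 or 3 or *IGFBP6* knockdown array 3 (adjusted p 0.0576 to 0.176). The list's median lay between 0.21 and 0.30 without each of the 9 arrays, and at 0.27 after quantile normalization. Copies of these genes are close in sequence and can share signal, and *H2BC12* lay above 16 in every array.

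Of 43 mitosis genes 0 were called (10 at an unadjusted p under 0.05, limma, beside 13.2% of all genes). Their median log2 fold change was -0.20, 41 of the 43 lay below 0, and in 17 the knockdown arrays lay below all control arrays, beside 13.8% of all genes tested. All 43 had a mean level of at least 6, and among all 10847 genes at that level 1803 had the knockdown arrays below all control arrays. At that level 2287 genes had an unadjusted p under 0.05 (limma). *NDC80*, a subunit of the kinetochore, was at 12.71, 12.76 and 12.75 in the control and 12.02, 12.44 and 12.34 after the knockdown (-0.47, adjusted p = 0.125) and *ASPM*, a spindle pole protein, at 12.82, 13.21 and 13.47 in the control and 12.52, 12.87 and 12.79 after the knockdown (-0.44, adjusted p = 0.346). Knockdown array 1 was the lowest in both genes, and the list's median was between -0.26 and -0.13 without each of the 9 arrays. For 44 genes of DNA replication the median was -0.01, for 46 cytosolic ribosomal proteins 0.09 and for 47 genes of the respiratory chain 0.00, with 0 calls in each (7, 8 and 5 at an unadjusted p under 0.05). In 35 genes of glycolysis and hypoxia the median was 0.17 and 1 fell, *ADM* (-0.90, adjusted p = 0.0486), a call lost without control array 1 or 3, knockdown array 1, 2 or 3 or *IGFBP6* knockdown array 2 or 3 (adjusted p 0.0643 to 0.185). This call is 2.86% of that list, beside 1.36% of all genes and 2.35% of those with a mean level of at least 6.

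Among noncoding RNAs 3 genes of microRNAs rose and 4 fell, 0.678% of the 1033 measured, beside 1.36% of all genes. Most of these microRNA genes, 800, had a mean level under 6, so the lower share may not be one of microRNAs as such. The array measures RNA of the locus and not the mature strand. The mature sequences of 4 are shown for their seeds, with bases 2 to 8 in capitals, because *MIR4500* and *MIRLET7A2* share a seed and both rose (RefSeq, GRCh38.p14, 6 of the 7 genes matched).
miR-4500 (*MIR4500*, chr13:87618671-87618687, minus strand): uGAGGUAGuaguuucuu
let-7a-5p (*MIRLET7A2*, chr11:122146568-122146589, minus strand): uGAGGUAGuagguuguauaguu
miR-1299 (*MIR1299*, chr9:40929010-40929031, minus strand): uUCUGGAAuucugugugaggga
miR-181b-5p (*MIR181B1*, chr1:198858925-198858947, minus strand): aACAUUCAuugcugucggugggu
The gene *MIR4500* was at 4.58, 5.57 and 5.96 in the control and 7.88, 6.89 and 7.36 after the knockdown (log2 fold change 2.01, standard error 0.35, adjusted p = 0.0273), *MIRLET7A2* at 7.76, 7.42 and 7.66 in the control and 8.69, 8.76 and 8.75 after the knockdown (log2 fold change 1.12, standard error 0.12, adjusted p = 0.0015) and *MIR1299* at 7.94, 7.76 and 8.38 in the control and 10.63, 9.48 and 9.86 after the knockdown (log2 fold change 1.96, standard error 0.26, adjusted p = 0.00531). All knockdown arrays lay above the control arrays, and the call of *MIR4500* was lost without control array 1 or 2 or knockdown array 1 or 3 (adjusted p 0.0608 to 0.114). Of the 12 measured microRNA genes with the seed GAGGUAG these 2 rose, the median log2 fold change of the 12 was -0.00 and the lowest -0.44. *MIR181B1* fell from 11.26, 11.45 and 11.13 to 10.01, 10.29 and 10.53 (-1.0, adjusted p = 0.0342), a call lost without control array 1, 2 or 3, knockdown array 1, 2 or 3 or *IGFBP6* knockdown array 2 (adjusted p 0.0559 to 0.121). *MIR1302-4* (-0.63, adjusted p = 0.0255), *MIR222* (-0.67, adjusted p = 0.0484) and *MIR92A2* (-0.59, adjusted p = 0.00981) also fell. Their calls were lost for *MIR1302-4* without control array 1 or 2 or knockdown array 1, 2 or 3 (adjusted p 0.0629 to 0.122), for *MIR222* without control array 1, 2 or 3, knockdown array 1, 2 or 3 or *IGFBP6* knockdown array 2 or 3 (adjusted p 0.0619 to 0.175) and for *MIR92A2* without control array 1 or 2 or knockdown array 1, 2 or 3 (adjusted p 0.0471 to 0.0579), where the change of *MIR92A2* in part dropped under 1.5 times.

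Of 542 long intergenic noncoding RNAs 6 rose and 4 fell (1.85%). *LINC00648* rose from 4.67, 4.69 and 4.62 to 6.63, 6.57 and 7.05 (log2 fold change 2.09, standard error 0.19, adjusted p = 0.000591) and *LINC02910* from 4.63, 4.59 and 4.41 to 5.88, 6.11 and 5.87 (log2 fold change 1.41, standard error 0.14, adjusted p = 0.000881), beside *LINC00707* and *LINC00440* above. Of 173 C/D box small nucleolar RNAs 0 rose and 2 fell, *SNORD91B* (-1.11, adjusted p = 0.0212) and *SNORD82* (-0.68, adjusted p = 0.0321), and the median of the class was -0.11. The share called in this class, 1.16%, lay near the 1.36% of all genes. The call of *SNORD91B* was lost without control array 1 or 2 or knockdown array 1 or 3 (adjusted p 0.0518 to 0.0764) and that of *SNORD82* without control array 1 or 3 or knockdown array 1 or 3 (adjusted p 0.0985 to 0.154). Among 64 H/ACA box small nucleolar RNAs 1 rose and 2 fell, 4.69% of the class. In the fits without 1 array that class had 0 to 1 rises and 0 to 2 falls.

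Of 20 expressed genes around *ELOVL5* on chromosome 6, 10 on each side in the order of RefSeq, 0 fell and 1 rose, and their log2 fold changes had a median of 0.04 and reached down to -0.28 (*MMUT*). Only protein-coding genes with a mean level of at least 6 were counted, so other genes can lie between them. The nearest of the counted genes before *ELOVL5*, *CILK1*, differed by 0.43 (adjusted p = 0.305), and the nearest after it, *GCLC*, by 0.00. *FAM83B*, the third counted gene after *ELOVL5*, rose from 5.89, 6.14 and 6.40 to 7.04, 7.33 and 7.21 (1.05, adjusted p = 0.0295), a call lost without control array 1 or 2 or knockdown array 1, 2 or 3 (adjusted p 0.0666 to 0.13).

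Beside the *IGFBP6* knockdown, which was measured against the same 3 control arrays, many of these genes differed in size and some in direction. Over all genes 16.3% were called between the *IGFBP6* knockdown and the control, and 13.1% between both knockdowns directly. Among the named genes that fell against the control in both knockdowns, *INHBB* was 5.19 higher on the log2 scale in the *ELOVL5* knockdown. Its values in the *IGFBP6* knockdown were 5.23, 4.94 and 4.76 (adjusted p = 9.95e-08). *CDH11* (5.01), *SLAMF7* (4.82), *TGFB2* (3.94) and *LINC03033* (3.31) were also higher there, and all of these genes fell less with *ELOVL5* knocked down. Among named genes that rose in both knockdowns, *MMP3* was -5.94 in the same comparison, with the *IGFBP6* knockdown at 14.68, 13.19 and 13.54 (adjusted p = 2.74e-06). *IL13RA2* (-4.01), *RFPL4AL1* (-3.59), *EPB41L3* (-3.55) and *NCKAP1L* (-3.23) were also lower in the *ELOVL5* knockdown, and all of these genes rose less there.

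Some genes moved against the control in the *ELOVL5* knockdown and not in the same way in the other. *CALB2*, which encodes the calcium-binding protein calretinin, was at 5.35, 5.03 and 5.11 in the control and 6.60, 6.77 and 6.81 after the knockdown and at 4.51, 4.20 and 4.30 in the *IGFBP6* knockdown. The 3 groups did not overlap, and the direct difference was 2.39 (adjusted p = 1.35e-06). *PAPPA* differed from the control by 1.09 in the *ELOVL5* knockdown and by -0.71 in the *IGFBP6* knockdown (direct difference 1.80, adjusted p = 6.65e-06). For *IL7R* the 2 values were -1.12 and 0.33 (-1.45, adjusted p = 0.000115), and for *MITF* -1.0 and 0.25 (-1.25, adjusted p = 3.14e-05).

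*TGM2*, which encodes the tissue transglutaminase that crosslinks matrix proteins, was at 10.48, 10.93 and 10.25 in the control and 11.46, 11.42 and 11.47 after the knockdown and at 7.21, 7.72 and 7.29 in the *IGFBP6* knockdown. The direct difference was 4.04 (adjusted p = 6.66e-07), while its rise against the control (0.90, adjusted p = 0.0442) was lost without control array 1 or 3, knockdown array 1, 2 or 3 or *IGFBP6* knockdown array 3 (adjusted p 0.0639 to 0.177). *FLG*, filaggrin of the cornified skin, differed directly by 3.85 (adjusted p = 9e-07) and against the control by 0.95 and -2.90, and the call of its rise with *ELOVL5* knocked down was lost without control array 1, 2 or 3, knockdown array 2 or 3 or *IGFBP6* knockdown array 2 or 3 (adjusted p 0.0541 to 0.122). *HLA-DRB1*, whose rise is given above, differed directly by 2.43 (adjusted p = 5.45e-05, limma) and against the control by 1.16 and -1.27. *MMP1*, *ESM1* and *SSX1* rose less in the *ELOVL5* knockdown than in the other, by 6.65, 5.53 and 5.46 against 8.34, 7.12 and 8.55 (direct differences -1.68, -1.59 and -3.09, adjusted p = 1.7e-05, 0.00574 and 9.15e-07). *SULT1B1* rose in both, by 2.52 and 0.61 (adjusted p = 0.0195 in the *IGFBP6* knockdown), and more in the *ELOVL5* knockdown (direct difference 1.91, adjusted p = 2.67e-05). For *IL1RL1* the values were 2.92 and 3.75, and the direct difference of -0.83 did not pass (adjusted p = 0.0567).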

How the data were processed

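The authors hybridised total RNA to Human Transcriptome Array 2.0 microarrays and deposited log2 intensities per transcript cluster, processed in Transcriptome Analysis Console 4.0.0.25 by RMA. The RMA options, the probe annotation and the genome build are not given in the sources used here. The table holds 67528 transcript clusters on 9 arrays, of which 23781 carry a single symbol, 1543 several and 42204 none in the platform annotation. For the 479 genes with several transcript clusters, the brightest by its mean over all 9 was used, and 21497 transcript clusters were matched to RefSeq by gene ID.

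All 9 arrays were fitted with limma 3.58.1 in R 4.3.3 (lmFit, contrasts.fit and eBayes, without covariates, 6 residual and 4.04 prior degrees of freedom). All p-values of genes are from its moderated statistics, adjusted by the Benjamini-Hochberg procedure over the 67528 transcript clusters. Calls needed an adjusted p below 0.05 together with a 1.5-fold change. The smallest p that an exact permutation of 3 against 3 arrays allows is 0.1. The number of arrays limits the precision.

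The genes named were drawn from *ELOVL5*, elongases and desaturases, the 12 largest rises and falls, up to 4 called members of each of 75 lists (31 had 0 calls), the 5 largest direct differences from the *IGFBP6* knockdown in each direction and the neighbours of *ELOVL5*. Not every gene picked in this way is given in the text. The direct differences were ranked among called genes that differed in the same direction from the control and from the *IGFBP6* knockdown. The rises and falls were ranked among called genes whose knockdown arrays lay on 1 side of the control arrays, as all 306 did. *G0S2*, *AGMO*, *CCND2*, *PIK3CG*, *MITF*, *OLR1*, *PLEKHA7*, *CXADR*, *CDH2*, *SSX8P*, *SSX6P*, *PTGS2*, *PPARGC1A*, *PLAU*, *MMP14*, *GJA1*, *HLA-DRA*, *CD74*, *OASL*, *F13A1*, *IL18R1*, *CSF2RA*, *NDC80*, *ASPM*, *H2BC3*, *MYCT1*, *GKN2* and the microRNA genes beyond the first 4 were chosen after their values were seen. Members and lists were chosen with earlier results of these data known. Alternatives changed the arrays fitted, the variance model, the scaling, a filter on dim probes (a log2 value of at least 6 in at least 3 arrays), the adjustment, the fold threshold and the summary of transcript clusters, added a replicate block or left out 1 array. On 20 sets of simulated data with 200 changed transcript clusters of 67528, this comparison recovered 34.4%, 74.9% and 96.8% of changes of 1.5, 2 and 4 times. Recovery there needed an adjusted p below 0.05 and the right direction, without the 1.5-fold limit of a call. The shares are therefore not those of the calls, above all for changes of 1.5 times. The median number of false calls was 7. Python 3.11.15, pandas 2.3.3 and matplotlib 3.10.9 were used for tables and figures.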

Additional observations from a re-analysis of the deposited data

Results flagged for a closer look

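Transcript clusters without a single gene symbol were left out of the comparison, and they held a signal. Of 43747 such transcript clusters 338 were called after the knockdown of *ELOVL5* by the same limma fit and thresholds, 217 higher and 121 lower, which is 0.773% of them. Those with a single symbol were called in 1.30%. Of the 1543 transcript clusters with several symbols 13 rose and 0 fell, and among these are ones for histone H4 genes, for *HLA-DRB1* with *HLA-DRB3* and for *RFPL4A* with *RFPL4AL1*. Of the 42204 without a symbol 204 rose and 121 fell, and what they encode was not analysed here.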

How the results depend on the processing

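The fall of *ELOVL5* kept its direction and its call under every alternative, with a log2 fold change between -1.68 and -1.62 (largest adjusted p = 0.00966, limma), and -1.68 to -1.62 without each array. The counts of calls moved more. Genes called higher numbered 151, and 49 without moderated variances, 228 with array weights and 71 at 2 times. Genes called lower numbered 155, and 45, 213 and 43 under the same settings and 99 after median centring (109 higher). Without each of the 9 arrays they lay between 77 and 176 higher and 61 and 169 lower. The other settings gave 140 to 185 higher and 139 to 206 lower. Without *IGFBP6* knockdown array 1 more genes were called than in the main fit, 176 higher and 169 lower. The causes of the shifts were not tested. Whether replicate numbers pair the samples is not settled by 3 arrays per group. Deviations of same-numbered arrays from their group means correlated at 0.04, 0.31 and -0.10. Knockdown arrays 1 and 3 and control array 3 did not correlate best with their own numbers, while knockdown array 2 and control arrays 1 and 2 did. With the replicate number as a block 163 genes were called higher and 158 lower, 280 of them shared with the 306. Of 117 called genes picked for naming, not all of them given in the text, 74 lost the call without moderated variances. The call was lost for 33 after median centring, 17 in the fit of 6 arrays and 8 under the block, and 0 changed sign. Of the genes that rose 72 had a control mean under 6, near background, and how far this limits the size of a change was not tested.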

Other observations

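Other large gene families gave the following counts, beside 1.36% of all genes called. Of 533 zinc finger genes 0 rose and 3 fell, and *ZNF43* was the one whose call held without each of the 9 arrays, from 9.70, 9.67 and 9.68 to 9.06, 9.03 and 9.03 (log2 fold change -0.64, standard error 0.08, adjusted p = 0.00534, limma). Of 394 solute carriers 0 rose and 3 fell, with the largest change in *SLC4A4*, a sodium bicarbonate cotransporter, from 8.68, 9.29 and 9.11 to 7.65, 7.73 and 7.65 (log2 fold change -1.35, standard error 0.18, adjusted p = 0.00518). Of 101 potassium channels, 73 orphan receptors and 364 olfactory receptors 0 were called (7, 6 and 26 at an unadjusted p under 0.05, limma, beside 13.2% of all genes). Of these, 90, 55 and 358 had a mean level under 6, and 1.36% of the first 2 families would be about 1 gene each. The median of the olfactory receptors, most of which lie at background, was -0.07, and after quantile normalization -0.02. Of 35 cancer-testis antigens 1 rose, *SSX1*, and 1 fell, *MAGEC1*, from 6.43, 6.41 and 6.47 to 5.11, 5.25 and 5.19 (log2 fold change -1.25, standard error 0.09, adjusted p = 0.000135).

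Single genes of other lists gave the following values. *F13A1*, the transglutaminase of blood clotting, was at 8.21, 8.64 and 6.89 in the control and 5.88, 6.36 and 6.21 after the knockdown (-1.76, adjusted p = 0.0543, limma), with control array 3 lower than the others. In the luminal markers *FOXA1* rose from 5.01, 5.09 and 4.96 to 5.77, 5.71 and 5.83 (0.75, adjusted p = 0.0227), a call lost without control array 1, 2 or 3 or knockdown array 1, 2 or 3 (adjusted p 0.0627 to 0.12), while *ESR1* differed by -0.03 and *GATA3* by -0.25 and neither was called. *GKN2*, which encodes a gastrokine of the stomach and was chosen after its values were seen, fell from 6.42, 6.24 and 5.87 to 4.84, 4.69 and 4.81 (log2 fold change -1.40, standard error 0.13, adjusted p = 0.000623). *BCL2A1*, an antiapoptotic member of the BCL2 family, rose from 4.47, 4.11 and 3.76 to 5.43, 5.84 and 5.23 (1.39, adjusted p = 0.014), the only call among 16 members, and it was lost without control array 2 or knockdown array 2 (adjusted p 0.0548 to 0.0574). This single call is 6.25% of the BCL2 list, beside 1.36% of all genes. *HS6ST3*, which sulfates heparan sulfate, rose by 1.21 on the log2 scale (adjusted p = 0.00976), a call lost without knockdown array 2 or 3 (adjusted p 0.0521 to 0.0539). *CCN3*, a matricellular protein, fell by 1.13 (adjusted p = 0.0301), a call lost without control array 1 or 2, knockdown array 1, 2 or 3 or *IGFBP6* knockdown array 2 or 3 (adjusted p 0.0502 to 0.125). *MYCT1*, chosen in the same way as *GKN2*, rose from 4.76, 4.58 and 4.51 to 7.29, 6.52 and 7.06 (log2 fold change 2.34, standard error 0.21, adjusted p = 0.000558).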
